A study of Mus musculus with 8 samples.

Results

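MHC class II presentation in the liver was examined through 7 genes: the antigen-presenting chains H2-Aa, H2-Ab1 and H2-Eb1, the invariant chain Cd74, the loading factor subunits H2-DMa and H2-DMb1, and the transactivator Ciita. They were taken by symbol from a table of 15267 named genes, and each of the 7 had 1 probe set, a group of array probes summarised to 1 value per array. Expression was compared between Amacr-/- livers (4 arrays) and wild-type livers (4 arrays), all from male C57BL/6 mice of 3 to 3.5 months. Amacr encodes alpha-methylacyl-CoA racemase, which acts on branched-chain fatty acids and bile acid intermediates, and the study asked how liver expression differs where bile acid synthesis lacks this step. Per the labels the arrays of a genotype are biological replicates. How the knockout allele was made was not given in the sources used here.

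An MHC class II molecule is a pair of an alpha and a beta chain that displays peptides from endocytosed proteins to helper T cells. In the endoplasmic reticulum the pair binds the invariant chain, whose last fragment is later exchanged for a peptide by the H2-DM dimer. Ciita does not bind DNA itself. It is recruited to the X and Y boxes of class II promoters by the RFX complex and NF-Y, and interferon gamma induces it. In liver the known carriers of class II are dendritic cells, B cells, Kupffer cells and sinusoidal endothelium, whereas healthy hepatocytes carry little. H2-Aa and H2-Ab1 form the I-A molecule. H2-Eb1 is the beta chain of I-E, which mice of the b haplotype such as C57BL/6 do not display because they lack the matching alpha chain.

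The promoters are shown for the X and Y boxes named above, and their part in the values below was not tested. RefSeq windows (GRCm38.p6) were found for 4 of the 7 genes, and the 250 bases before the transcription start are printed for 3 of these. Capitals mark an X box core, searched as CTNGNAAC, followed by a Y box core, searched as TGATTGG.
H2-Aa, chr17:34287824-34288073, minus strand: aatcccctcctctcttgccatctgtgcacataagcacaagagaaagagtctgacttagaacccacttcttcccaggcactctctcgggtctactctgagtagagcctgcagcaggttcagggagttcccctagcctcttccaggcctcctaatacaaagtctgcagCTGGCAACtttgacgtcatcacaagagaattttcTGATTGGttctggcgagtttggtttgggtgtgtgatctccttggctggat
H2-Eb1, chr17:34305617-34305866, plus strand: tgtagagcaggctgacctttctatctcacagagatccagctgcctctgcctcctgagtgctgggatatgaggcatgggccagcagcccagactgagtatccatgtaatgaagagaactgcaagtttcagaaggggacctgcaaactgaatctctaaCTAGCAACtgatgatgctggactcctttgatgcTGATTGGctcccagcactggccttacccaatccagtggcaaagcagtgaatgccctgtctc
H2-DMb1, chr17:34152941-34153190, plus strand: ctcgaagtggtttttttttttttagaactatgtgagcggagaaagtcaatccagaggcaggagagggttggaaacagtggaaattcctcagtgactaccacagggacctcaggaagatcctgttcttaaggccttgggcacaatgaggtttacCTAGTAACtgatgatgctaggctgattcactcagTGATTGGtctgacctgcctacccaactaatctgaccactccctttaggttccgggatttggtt
In H2-Aa and H2-DMb1 26 bases separate the cores, and in H2-Eb1 25 bases do. The Y box core ends 43 bases before the start of H2-Aa, 54 before that of H2-Eb1 and 56 before that of H2-DMb1. The letters were chosen with these promoters in view, so the match is a description. Among 32851 windows of 300 bases, from 250 before to 50 after a start, 13.2% held CTNGNAAC and 7.82% held TGATTGG on either strand. The 2 in this order, 15 to 35 bases apart on the same strand, were in 0.0700% of windows, from 20 genes. Beside the 3 genes printed, these included H2-Ob, a class II gene that lies between H2-DMb1 and H2-Ab1. They also included genes in none of the lists used here, such as Stat2, Plk1 and Mark3. Neither of the 2 windows of H2-DMa held the pair.

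All values are log2 signals. Amacr had 5.47, 5.39, 5.52 and 5.23 in Amacr-/- livers, against 12.03, 12.05, 12.06 and 11.68 in wild-type livers, so every array matched its genotype label. Array medians lay between 6.62 and 6.66. The 10 hepatocyte markers measured had a median signal at percentile 99.9 of all probe sets. Wild-type replicate 4 stood apart for the genes of this study and was the highest of the 8 arrays for all 7, where it was for 9.03% of all probe sets. It exceeded every other array by at least 1 on the log2 scale, which is 2-fold, for 6 of the 7, where 0.273% of all 16492 probe sets did (45 probe sets). Amacr-/- replicate 2 stood at least 1 above every other array for 111 probe sets (0.673%), none of them among the 7, and had the lowest array weight, 0.300 against 0.935 to 1.75 for the others. The genotype differences of the 7 genes, and of the other class II, class I, interferon and Kupffer cell lists, are given with and without wild-type replicate 4. Those of the 7 are also given without Amacr-/- replicate 2. Other cell type markers are given mainly as mean levels. In whole liver, fewer cells that carry a transcript and less of it per cell cannot be told apart.

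The 3 chain genes varied together across the arrays. H2-Aa, the I-A alpha chain, had 10.04, 10.41, 10.10 and 9.20 in Amacr-/- replicates 1 to 4, against 9.48, 8.82, 8.91 and 11.47 in wild-type replicates 1 to 4. Wild-type replicate 4 was the highest, Amacr-/- replicates 1 to 3 came next, and Amacr-/- replicate 4 lay among the other wild-type arrays, so the groups overlapped. H2-Ab1, the I-A beta chain, had 9.78, 10.11, 9.82 and 8.76 in Amacr-/- livers and 9.12, 8.44, 8.58 and 11.38 in wild-type livers. H2-Eb1, the I-E beta chain, had 9.90, 10.30, 10.07 and 9.16 in Amacr-/- livers and 9.42, 8.84, 8.96 and 11.37 in wild-type livers. Across the 8 arrays the 3 chains had the same rank order. In wild-type replicate 4 the signal of H2-Ab1 was 4.79-fold that of the next wild-type array, that of H2-Aa 3.97-fold and that of H2-Eb1 3.86-fold.

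**Figure D1:**
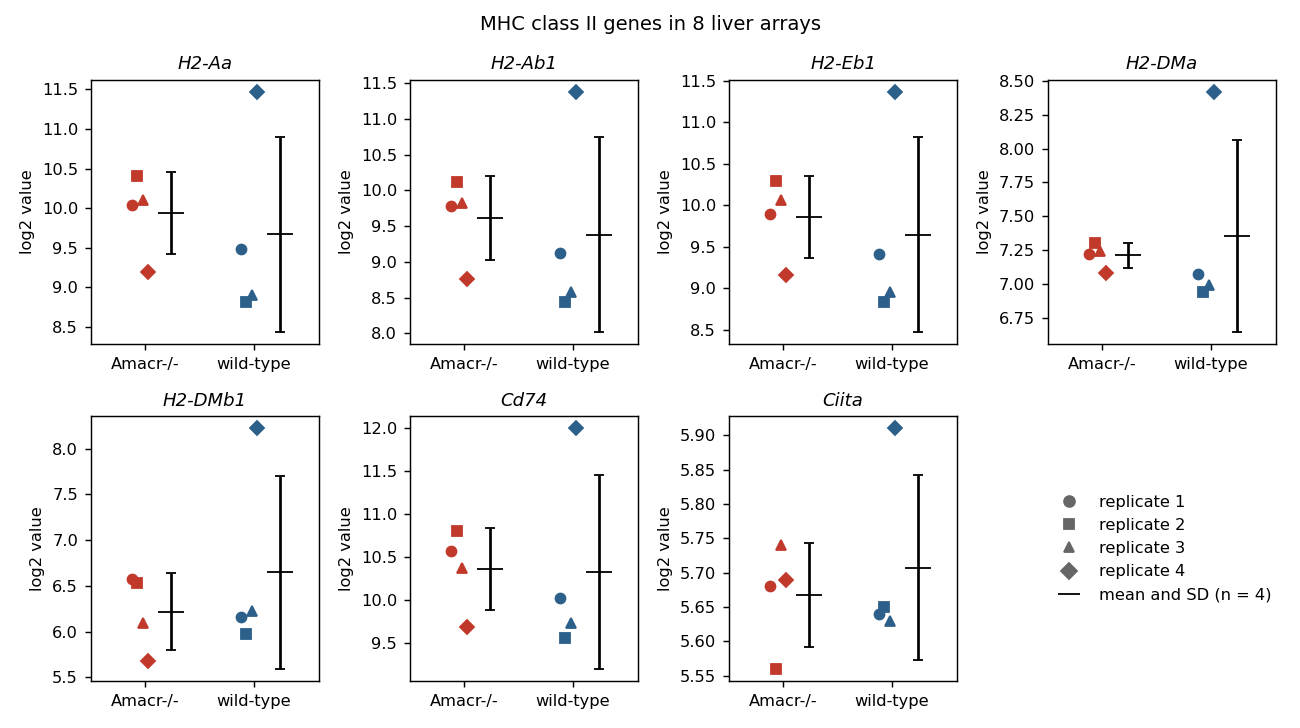
Log2 values of the 7 class II genes in 4 Amacr-/- arrays (red) and 4 wild-type arrays (blue), with a marker shape per replicate number and bars for the mean and SD (n = 4), on an axis of its own for each gene. Wild-type replicate 4 (blue diamond) is the highest array in every panel, and for the chains and Cd74 Amacr-/- replicates 1 to 3 lie between it and the other arrays.

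Cd74, the chaperone that occupies the binding groove of new class II molecules, followed the chains. It had 10.57, 10.80, 10.37 and 9.69 in Amacr-/- livers, against 10.02, 9.56, 9.73 and 11.99 in wild-type livers. Amacr-/- replicate 4 again lay inside the range of wild-type replicates 1 to 3, from 9.56 to 10.02, and the other Amacr-/- arrays lay above that range.

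The 2 subunits of the peptide-loading factor differed from each other in the Amacr-/- livers. H2-DMa had 7.22, 7.30, 7.24 and 7.08 there, a range of 0.22, against 7.07, 6.94, 6.99 and 8.42 in wild-type livers. All 4 Amacr-/- arrays lay above wild-type replicates 1 to 3, though by as little as the step between 7.08 and 7.07. H2-DMb1 had 6.58, 6.53, 6.09 and 5.68 in Amacr-/- livers, against 6.16, 5.98, 6.23 and 8.22 in wild-type livers. Its values in Amacr-/- replicates 1 and 2 lay above wild-type replicates 1 to 3, replicate 3 lay among them and replicate 4 lay below them all. H2-DMb1 has a near-identical neighbour, H2-DMb2, and how far probes are shared between them was not given in the sources used here.

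Ciita, the transactivator, varied least. It had 5.68, 5.56, 5.74 and 5.69 in Amacr-/- livers and 5.64, 5.65, 5.63 and 5.91 in wild-type livers. Wild-type replicate 4 exceeded the next wild-type array by 0.26. The mean Ciita signal was at percentile 33.7 of all probe sets, and how much of so low a signal is background was not tested.

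The spread between wild-type arrays was large for 6 of the 7 genes. The SD over 4 wild-type arrays was 1.37 for H2-Ab1, 1.24 for H2-Aa, 1.18 for H2-Eb1, 1.13 for Cd74, 1.05 for H2-DMb1 and 0.71 for H2-DMa, where the median over all probe sets was 0.11. These 6 lay at percentiles 99.5 to 99.9 of all wild-type SDs, and Ciita, with 0.14, lay at percentile 66.2. In linear signal the highest wild-type array exceeded the lowest 7.67-fold for H2-Ab1, against 2.55-fold between Amacr-/- arrays. Every one of the 7 had a larger SD in wild-type than in Amacr-/- livers, 7.65 times larger for H2-DMa and 1.77 to 2.50 times for the others. Without wild-type replicate 4 the wild-type SD was 0.36 for H2-Ab1 and 0.066 for H2-DMa (n = 3), below the Amacr-/- SDs of 0.59 and 0.093 (n = 4). No test was made of these SDs.

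**Figure D2:**
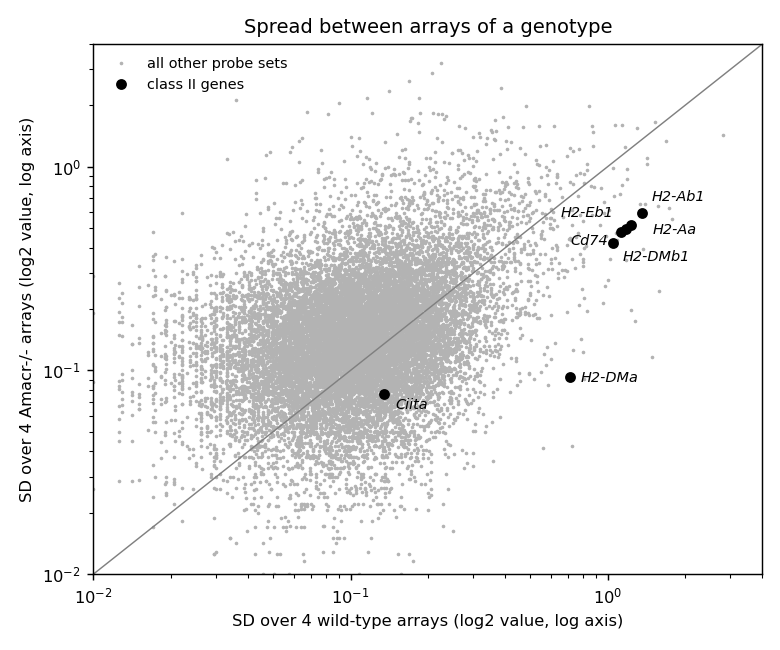
SD over the 4 Amacr-/- arrays (vertical) against SD over the 4 wild-type arrays (horizontal) for every probe set with both above 0, in log2 units on log axes, with the line of equal SD. The 7 class II genes (black) lie below the line, 6 of them among the widest wild-type spreads of the array, and Ciita lies within the bulk.

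With all 8 arrays no class II gene differed between the genotypes beyond this spread. By limma, with Benjamini-Hochberg adjustment over 16492 probe sets, 0 of the 7 passed an adjusted p of 0.05, where 0.115% of all probe sets did (19 of 16492). At an unadjusted p under 0.05 there were likewise 0 of 7, where 11.3% of all probe sets passed, and the 2 genotypes overlapped for 7 of 7, with no overlap for 6.67% of all probe sets. H2-Aa averaged 9.94 ± 0.52 in Amacr-/- and 9.67 ± 1.24 in wild-type livers (SD, n = 4 each), so that Amacr-/- livers were 0.27 higher on the log2 scale (SE 0.55, limma adjusted p = 0.879). H2-Ab1 differed by 0.24 (SE 0.61, limma adjusted p = 0.907), with a 95% interval from -1.14 to 1.61, so changes of more than 2-fold in either direction remained within it. The intervals thus bound the differences loosely for the chains. H2-Eb1 differed by 0.21 (SE 0.52), Cd74 by 0.03 (SE 0.50), H2-DMa by -0.14 (SE 0.30) and H2-DMb1 by -0.43 (SE 0.46), with limma adjusted p from 0.765 to 0.984. Ciita differed by -0.04 (SE 0.082), with an interval from -0.23 to 0.15. Means were higher in Amacr-/- livers for 4 of the 7, where they were for 56.1% of all probe sets. The median difference over the 7 was 0.03, beside 0.02 over all probe sets. Exact two-sided permutation tests of the single genes gave p from 0.657 to 1, where 4 arrays against 4 cannot give less than 0.0286.

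The sign and size of these differences depended on single arrays. Without wild-type replicate 4 all 7 had higher means in Amacr-/- livers, where 55.7% of all probe sets did. The median difference was then 0.59, where that of all probe sets was 0.02. Without wild-type replicate 2 all 7 had lower means in Amacr-/- livers (median -0.076), and without wild-type replicate 3 6 of 7 had (median -0.066). Without Amacr-/- replicate 2, 3 of the 7 were higher and 4 lower. Leaving out wild-type replicate 4 moved the differences furthest. Without wild-type replicate 4, H2-Ab1 differed by 0.90 (SE 0.31, 1.87-fold, limma adjusted p = 0.349), with an interval from 0.18 to 1.63. H2-Aa differed by 0.87 (SE 0.28, limma adjusted p = 0.323), H2-Eb1 by 0.78 (SE 0.26, limma adjusted p = 0.335) and Cd74 by 0.59 (SE 0.25, limma adjusted p = 0.424). H2-DMa differed by 0.21, H2-DMb1 by 0.10 and Ciita by 0.03, each with the sign opposite to that over 8 arrays. Again 0 of 7 passed the adjusted threshold, where 0.0667% of all probe sets did, and 5 of 7 had an unadjusted limma p under 0.05, where 11.4% of all did. In 6 of the 7, at least 3 Amacr-/- arrays lay above the 3 remaining wild-type arrays, as in 20.1% of all probe sets. H2-DMa alone had all 4 above, as in 5.43% of all. Leaving out Amacr-/- replicate 2 as well gave 6 higher and 1 lower, with a difference of 0.74 for H2-Ab1. Wild-type replicate 4 was singled out because of its values, so these figures describe 7 arrays and do not show that the genotypes differ. Exact permutation p was 0.0571 for H2-DMa, the smallest that 4 arrays against 3 allow, and 0.114 to 0.800 for the rest.

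**Figure D3:**
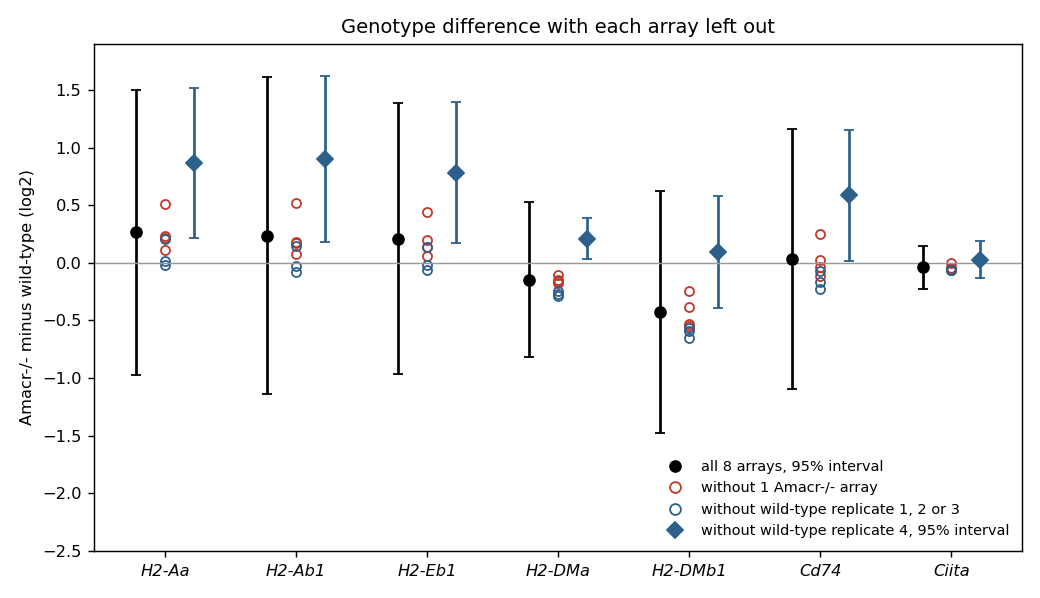
Log2 difference of each gene, Amacr-/- minus wild-type, over all 8 arrays (black, with 95% limma interval), with 1 array left out (open circles) and without wild-type replicate 4 (diamonds, with 95% interval). Leaving out wild-type replicate 4 lifts the difference of H2-Ab1 to 0.90, whereas leaving out any other array keeps it between -0.076 and 0.52.

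The 7 genes did not all follow the same pattern. H2-Aa and H2-Ab1 correlated across the 8 arrays with r = 0.999, and still with 0.997 over the 6 arrays left without wild-type replicates 4 and 2. Cd74 and H2-Ab1 had r = 0.989 over 8 arrays and 0.976 over 6. H2-DMa kept its place beside the chains, with r = 0.910 to H2-Ab1 over 8 arrays and 0.976 over 6, at a much smaller range. H2-DMb1 had r = 0.876 to H2-Ab1 over 8 arrays and 0.635 over 6. Ciita had r = 0.650 over 8 arrays but -0.10 over 6, so that its likeness to the chains rested on wild-type replicate 4. These correlations share the same arrays and are descriptive.

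In Amacr-/- replicate 3, H2-DMb1 and Cd74 lay furthest below H2-Ab1 of the 8 arrays, each measured as the log2 ratio to H2-Ab1 less its wild-type median. Set against the median of the wild-type arrays, H2-Ab1 was 0.97 higher there, H2-Aa 0.91 higher and H2-Eb1 0.88 higher. Cd74 was 0.49 higher and H2-DMa 0.21 higher, while H2-DMb1 lay at -0.10. In wild-type replicate 4 the same measure was 2.53 for H2-Ab1 and 2.02 for H2-DMb1.

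Of 19 other class II presentation genes measured, 0 passed the adjusted limma threshold in either direction, where 0.115% of all probe sets did. Means were higher in Amacr-/- livers for 5 and lower for 14, where 56.1% of all probe sets were higher. The median difference was -0.11. Without wild-type replicate 4 there were 9 higher and 10 lower, with a median of -0.0067. Ctss, cathepsin S, which trims the invariant chain, had 11.00, 11.29, 10.23 and 9.81 in Amacr-/- livers, against 10.89, 10.37, 10.77 and 11.77 in wild-type livers. It was lowest in Amacr-/- replicates 3 and 4, although the chains were high in replicate 3. Ctsl, a cathepsin of the same trimming step in other cells, had 13.31, 13.67, 13.25 and 13.22 in Amacr-/- livers, against 12.97, 13.02, 13.08 and 13.15 in wild-type livers. All 4 Amacr-/- arrays lay above the wild-type arrays for Ctsl, where groups did not overlap for 6.67% of all probe sets. The Ctsl difference of 0.31 (SE 0.10) had a limma adjusted p of 0.325. Nfyb, a subunit of the Y box factor NF-Y, differed by -0.39 (SE 0.23, limma adjusted p = 0.562), and Ctsh, another lysosomal protease, by -0.26 (SE 0.088, limma adjusted p = 0.320).

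The RFX subunits bind the X box, and none of the 3 passed the limma threshold, where 0.115% of all probe sets did. Rfx5 had 7.93, 7.66, 7.62 and 7.46 in Amacr-/- livers and 7.91, 7.46, 7.51 and 7.95 in wild-type livers. Rfxap differed by -0.22 (SE 0.095) and Rfxank by 0.15 (SE 0.075), with limma adjusted p of 0.422 and 0.496. In wild-type replicate 4, where the chains were highest, Rfxap was the lowest of the wild-type arrays at 7.05.

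The 5 H2 members lie in a run of genes on mouse chromosome 17 that also holds genes of class I presentation. In the RefSeq gene table, whose order alone was used, 6 further protein-coding genes lie between H2-DMa and H2-Eb1, and all 6 were measured. Wild-type replicate 4 was the highest array for all 6 and stood at least 1 above every other array for 3 of them, Psmb9, Tap1 and Psmb8. Among the 5 genes flanking the run on each side 6 were measured, and wild-type replicate 4 was the highest array for 1, H2-Oa, a modulator of H2-DM.

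The class I presentation genes of this run shared the high value of wild-type replicate 4 with the chains but not the high values of Amacr-/- replicates 1 to 3. Psmb9, an immunoproteasome subunit, had 8.74, 8.65, 8.24 and 8.20 in Amacr-/- livers, against 8.91, 8.50, 8.65 and 10.66 in wild-type livers. Psmb8, another such subunit, had 9.02, 8.86, 8.28 and 8.41 in Amacr-/- livers, against 9.27, 9.17, 9.15 and 10.64 in wild-type livers. For Psmb8 every Amacr-/- array lay below every wild-type array, where groups did not overlap for 6.67% of all probe sets. The Psmb8 difference was -0.92 (SE 0.33, limma adjusted p = 0.349). That difference without wild-type replicate 4 was -0.55 (SE 0.18, limma adjusted p = 0.314). Tap1, a subunit of the peptide transporter, had 7.19, 7.10, 7.16 and 7.19 in Amacr-/- livers, against 7.37, 7.25, 7.20 and 8.72 in wild-type livers, and Tap2, its partner, reached 8.40 in wild-type replicate 4 against 7.97 or less elsewhere among wild-type arrays. Of the 15 class I presentation genes measured, 0 passed the threshold, where 0.115% of all probe sets did. Wild-type replicate 4 was the highest array for 13 of the 15. Means were higher in Amacr-/- livers for 2 and lower for 13, where 56.1% of all probe sets were higher. Without that array 5 were higher and 10 lower, and the median difference, -0.21 over 8 arrays, was -0.055. Psmb10, an immunoproteasome subunit encoded outside the run, differed by -0.63 (SE 0.21, limma adjusted p = 0.315), and by -0.40 without wild-type replicate 4.

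**Figure D4:**
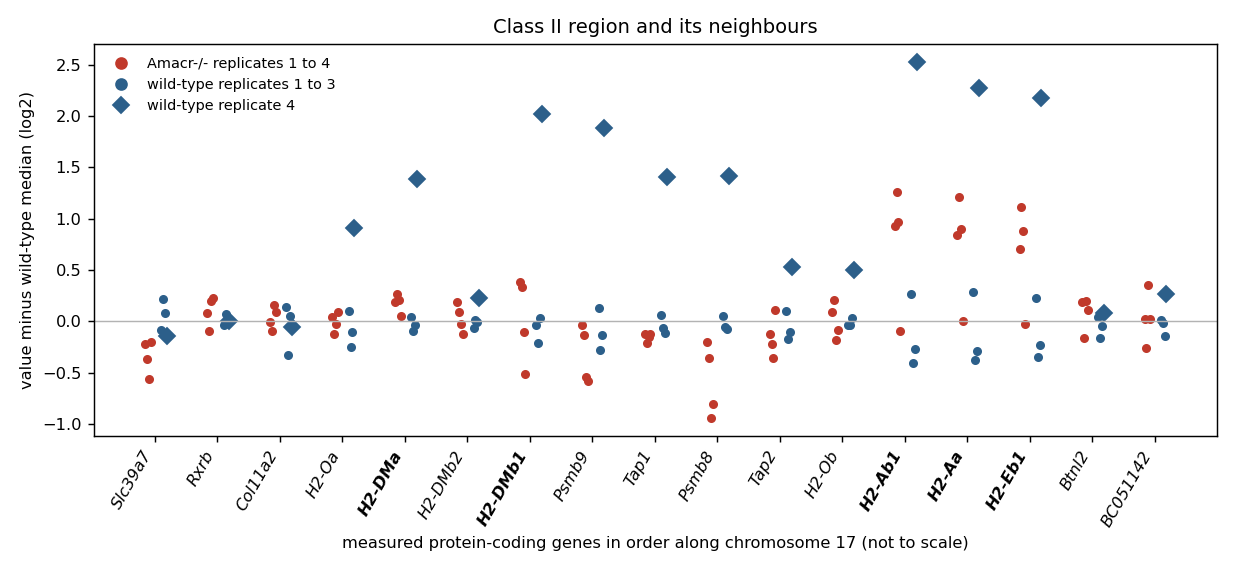
Value of each measured protein-coding gene minus its wild-type median, in log2 units, in order along chromosome 17 (not to scale), with the 5 members in bold. Wild-type replicate 4 (diamonds) is the highest array for every gene from H2-DMa to H2-Eb1, though by only 0.04 at H2-DMb2 and 0.30 at H2-Ob. Amacr-/- arrays (red) reach about the 1 mark only at H2-Ab1, H2-Aa and H2-Eb1.

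Targets of interferon gamma, which induces Ciita, were also highest in wild-type replicate 4. It was the highest array for 14 of 20 measured genes of that list, by at least 1 for 8. Igtp, an interferon-induced GTPase, had 9.42, 9.01, 9.11 and 9.18 in Amacr-/- livers, against 9.71, 9.52, 9.60 and 12.16 in wild-type livers. Its 4 Amacr-/- values lay below all wild-type values, where groups did not overlap for 6.67% of all probe sets. In contrast, 3 of the 4 Amacr-/- values of each chain lay above wild-type replicates 1 to 3. Gbp2, a guanylate-binding protein, had 6.66, 6.88, 5.43 and 5.33 in Amacr-/- livers, against 7.14, 6.44, 6.38 and 8.81 in wild-type livers. Gbp7 differed by -0.82 (SE 0.33) and Cxcl9, a chemokine for T cells, by -0.87 (SE 0.54), with limma adjusted p of 0.402 and 0.581. The differences were -0.47 for Gbp7 and -0.37 for Cxcl9 without wild-type replicate 4. None of the 20 passed, where 0.115% of all probe sets did. Of the 20, 5 had higher and 15 lower means, and the median difference was -0.24, where 56.1% of all probe sets were higher. The 7 arrays without wild-type replicate 4 gave 9 higher and 11 lower, with a median of -0.02. The median deviation of this list from the wild-type median was -0.02, -0.04, -0.34 and -0.31 in Amacr-/- replicates 1 to 4, against 0.0075, -0.10, -0.04 and 0.86 in wild-type replicates 1 to 4. For the class II genes it was 0.69, 0.92, 0.49 and -0.03 in Amacr-/- livers, against 0.14, -0.32, -0.14 and 2.12 in wild-type livers. Of 13 type I interferon targets 0 passed, beside the same 0.115% of all probe sets, and wild-type replicate 4 was the highest array for 7. Usp18 of that list differed by -0.86 (SE 0.34) and Oasl2 by -0.78 (SE 0.32), with limma adjusted p of 0.383 and 0.404. They differed by -0.57 and -0.49 without wild-type replicate 4. The list had 5 higher and 8 lower means both with and without that array, where 56.1% of all probe sets were higher over 8 arrays. Its median difference was -0.445 over 8 arrays and -0.32 without that array. Its median deviation from the wild-type median was 0.135, 0.075, -0.935 and -0.515 in Amacr-/- replicates 1 to 4. In wild-type replicates 1 to 4 it was -0.105, -0.06, -0.01 and 0.33.

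**Figure D5:**
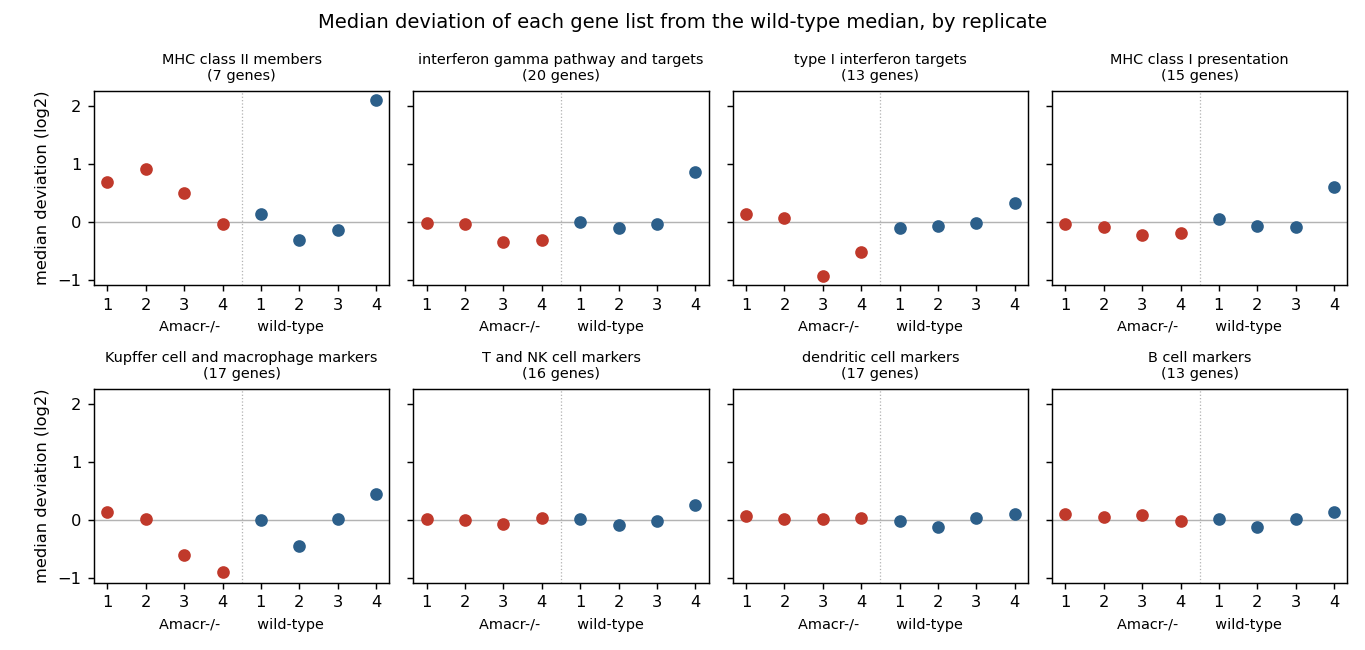
Median deviation of 8 gene lists from each gene's wild-type median, in log2 units, by replicate (Amacr-/- in red, wild-type in blue). Class II genes reach 0.92 in Amacr-/- replicate 2 and 2.12 in wild-type replicate 4, whereas the interferon gamma list is at -0.34 to -0.02 in Amacr-/- livers.

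Markers of the cells that can carry class II were set beside these values. The mean log2 level of 17 Kupffer cell and macrophage markers lay between 8.12 and 9.07 in Amacr-/- livers, against 8.56 to 9.44 in wild-type livers. Wild-type replicate 4 was the highest array for 11 of them. Of the 17, 2 had higher and 15 lower means in Amacr-/- livers, with a median difference of -0.37. Over all probe sets 56.1% had higher means. Without wild-type replicate 4 there were 3 higher and 14 lower, with a median of -0.24. Marco, a scavenger receptor of macrophages, had 6.99, 6.38, 5.81 and 5.63 in Amacr-/- livers, against 6.81, 6.17, 8.06 and 8.30 in wild-type livers. The median deviation of the Kupffer cell list from the wild-type median was 0.13, 0.02, -0.60 and -0.90 in Amacr-/- replicates 1 to 4. In wild-type replicates 1 to 4 it was -0.005, -0.46, 0.005 and 0.44. The chains were high in Amacr-/- replicates 1 to 3 and not in replicate 4. The 17 dendritic cell markers had a mean level of 6.27 to 6.36 in Amacr-/- livers, against 6.13 to 6.44 in wild-type livers. The 13 B cell markers had 5.20 to 5.39 in Amacr-/- livers, against 5.11 to 5.40 in wild-type livers. Higher means in Amacr-/- livers were found for 10 of the 17 and 6 of the 13. Without wild-type replicate 4 they were found for 13 and 8. All 13 B cell markers and 12 of the 17 dendritic cell markers had a mean signal below the median probe set. The 16 T and NK cell markers lay at 5.61 to 5.70 in Amacr-/- livers and 5.53 to 6.12 in wild-type livers. Wild-type replicate 4 was the highest array for 10 of the 16, and by at least 1 for Ccl5 alone. Ccl5, a chemokine of those cells, had its highest value, 8.87, in that array, where wild-type replicates 1 to 3 had 6.52 to 6.76.

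Sinusoidal endothelium markers were lowest in wild-type replicate 4, where the class II genes were highest. Their mean level over 15 genes was 7.75 to 7.99 in Amacr-/- livers, against 7.68 to 8.13 in wild-type livers, and wild-type replicate 4 was the highest array for 0 of 15. The 8 monocyte markers lay at 5.69 to 6.21 in Amacr-/- livers and 5.83 to 6.52 in wild-type livers, and the 10 neutrophil markers at 5.96 to 6.24 in Amacr-/- livers and 5.99 to 6.34 in wild-type livers. Stellate cell markers (13 genes) lay at 8.12 to 8.90 in Amacr-/- livers and 8.23 to 8.32 in wild-type livers. Cholangiocyte markers (6 genes) lay at 4.81 to 5.89 in Amacr-/- livers and 4.94 to 5.29 in wild-type livers. Amacr-/- replicate 2 alone gave both upper ends, and the other Amacr-/- arrays lay at 8.12 to 8.31 and 4.81 to 5.27. Ptprc, the common leukocyte antigen, had 8.08, 8.71, 7.07 and 7.03 in Amacr-/- livers, against 8.29, 7.50, 8.11 and 9.27 in wild-type livers. Of all these cell type markers 0 passed the limma threshold, where 0.115% of all probe sets did. Their part in the class II values was not tested.

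Among named genes outside the 7, those most like the mean of the 7 over the 8 arrays were led by Rnf123, a subunit of a ubiquitin ligase, with r = 0.988 over 8 arrays and 0.972 over the 6 left without wild-type replicates 4 and 2. Its whole range was 0.33 on the log2 scale, against 2.94 between wild-type arrays for H2-Ab1. The next were Il16, a T cell chemoattractant (r = 0.959), Pkn2, a protein kinase (0.958), Myo1f, a myosin of leukocytes (0.956), and Ms4a6b (0.956). Rnf103 (0.952), Lpxn or leupaxin (0.950), Ctsw, a cathepsin of cytotoxic lymphocytes (0.942), Hp or haptoglobin (0.942) and the chemokine receptor Cxcr6 (0.937) completed the 10. Over 6 arrays r ranged from 0.674 for Cxcr6 to 0.972 for Rnf123. The 10 were picked for the highest r among all named genes outside the 7. With 8 arrays, high r arises by such selection alone, so these values are descriptive. None of the 10 passed the limma threshold between genotypes, where 0.115% of all probe sets did. Their differences ran from -0.12 to 0.04 over 8 arrays and from 0.028 to 0.32 without wild-type replicate 4. Ms4a6b had the widest range of the 10, 1.76, and stood 0.73 above the next array in wild-type replicate 4.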

How the data were processed

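Total RNA of whole liver, extracted with TRIzol per the labels' protocols, was labelled with biotin and hybridised to 1 array per sample. The deposited values are log2 signals normalized by the authors with RMA, per the submitters' processing notes. Array type, software and filters are not given in the sources used here. In the table were 16556 probe sets. Leaving out 64 array controls left 16492, of which GEO's platform annotation named 1 gene for 15270, several for 0 and none for 1222. Without detection calls or scan dates, background and batch could not be examined.

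A linear model with genotype as its single term was fitted to the 8 arrays with limma 3.58.1 (lmFit, then eBayes with no trend; R 4.3.3; two-sided), with p-values adjusted by the Benjamini-Hochberg method over 16492 probe sets at a threshold of 0.05. Single genes also received an exact permutation test (scipy 1.17.1). The number of arrays limits the precision. The median SE of a difference was 0.0944. The steps were tested on simulated data. The members and the 14 other lists were chosen with earlier results of these data known. All 7 members were named whatever their p, with up to 4 genes of each other list by the size of the difference, Amacr, Ptprc and the 10 genes most like the members. The RFX subunits, the other genes of the chromosome 17 run, Ccl5 and the genes of the closing section were chosen after their values were seen. Alternatives were other variance models, array weights, controls kept, a filter on low values, median centring, quantile normalization, the replicate number as a block, and arrays left out. Leaving out arrays for the gene lists and the named genes outside the 7 was added after the data were seen.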

Additional observations from a re-analysis of the deposited data

Results flagged for a closer look

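Each group of 4 arrays was checked for a highest or lowest value far from its neighbour relative to the range of the group, for 44 genes named here. Chance flags about 1 in 20 groups, but many of these genes were named for their value in wild-type replicate 4 or their likeness to the class II genes, which peak there, so the number of flags cannot be read against that rate. Of 88 groups 19 stood out, 17 of them through wild-type replicate 4. For the class II genes these were H2-DMa, at 8.42 where wild-type replicates 1 to 3 had 6.94 to 7.07, H2-DMb1, at 8.22 against 5.98 to 6.23, and Ciita, at 5.91 against 5.63 to 5.65. In the same array H2-Ob was 4.93, Psmb8 10.64, Tap1 8.72, Gbp3 9.52, Gbp7 9.12, Igtp 12.16, Usp18 9.44, Oasl2 7.68 and Ccl5 8.87, each above the other wild-type arrays. Pkn2 at 7.53, Ms4a6b at 7.35, Lpxn at 6.14 and Hp at 14.14 were likewise high there, and Amacr at 11.68 was low against 12.03 to 12.06. In Amacr-/- livers, Ctsh was 10.67 in replicate 3 against 10.93 to 10.97 in the others, and Rnf123 was 8.55 in replicate 4 against 8.65 to 8.67.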

How the results depend on the processing

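No class II gene passed the adjusted limma threshold under any of 17 alternatives, and of 117 recomputed differences 101 kept their sign and 16 reversed it. The other variance models, controls kept, the filter on low values and the replicate block cannot change a difference. Signs under these alternatives were therefore kept by construction. With 1 array left out, the difference between Amacr-/- and wild-type livers ran from -0.016 to 0.87 for H2-Aa, -0.076 to 0.90 for H2-Ab1, -0.059 to 0.78 for H2-Eb1, -0.28 to 0.21 for H2-DMa, -0.65 to 0.097 for H2-DMb1, -0.22 to 0.59 for Cd74 and -0.066 to 0.028 for Ciita. Every upper end came from leaving out wild-type replicate 4. Without Amacr-/- replicate 2 and wild-type replicate 4 together, H2-DMa differed by 0.18 and Ciita by 0.063, and with array weights Ciita differed by 0.0039, and the cause was not tested. The count of probe sets past the threshold, 19, was 75 with array weights, 53 among probe sets above the median mean (where H2-DMb1 and Ciita were not tested), 38 after quantile normalization, 39 without Amacr-/- replicate 2 and wild-type replicate 4 together, and 2 to 39 with 1 array left out. With the replicate number as a block it was 1. Deviations of same-numbered arrays correlated at 0.050, -0.027, 0.092 and -0.12, within the range of -0.18 to 0.16 for arrays of different number. These values cannot decide whether same-numbered samples were handled together. The median difference of the 7, 0.03 over 8 arrays, ran from -0.076 to 0.59 with 1 array left out.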

Other observations

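Among the 45 probe sets for which wild-type replicate 4 stood at least 1 above every other array, 6 were class II genes, 15 belonged to other lists used here and 24 to none, 11 of these 24 without a gene name. The largest excess among named genes was that of Igtp, 2.45, followed by Jchain, 2.43, and Gbp3, 1.88. Larger excesses, 4.74 and 2.78, belonged to probe sets without a gene name. Jchain, the joining chain of polymeric antibodies made by plasma cells, had 6.24, 6.79, 5.85 and 5.23 in Amacr-/- livers, against 8.10, 7.85, 7.45 and 10.53 in wild-type livers. Its groups did not overlap, as for 6.67% of all probe sets, and its difference was -2.46 (SE 0.63, limma adjusted p = 0.183). Without wild-type replicate 4 it was -1.77 (SE 0.34, limma adjusted p = 0.136).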
